A study of Mus musculus with 12 samples.

Results

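The liver X receptors, 2 nuclear receptors that sense cholesterol derivatives, and 8 genes known as their targets or as parts of cholesterol efflux were followed in mouse bone marrow-derived macrophages. The 10 genes were Nr1h3, Nr1h2, Abca1, Abcg1, Apoe, Pltp, Mylip, Srebf1, Scd2 and Lpcat3. They were taken by symbol from a deposited table of 54532 genes, where each symbol had 1 row. All 10 passed the filter on low counts, which left 14286 tested genes.

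A macrophage that has engulfed lipoproteins or dying cells cannot break down the sterol ring, so it must store or export the cholesterol it takes up. Oxysterols made from that cholesterol bind the liver X receptors (LXR), which sit on DNA as heterodimers with retinoid X receptors (RXR). Without ligand the receptors hold the NCoR and SMRT corepressor complexes, whose catalytic subunit is the histone deacetylase Hdac3, and with ligand they exchange these for coactivators. The best known macrophage targets are the transporters Abca1 and Abcg1, the acceptor Apoe, and the fatty acid programme of Srebf1.

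The libraries came from bone marrow cells of 8-week-old mice, grown in medium with serum and 10 ng/ml M-CSF, the growth factor that turns marrow precursors into macrophages. Both genotypes carried floxed Hdac3 alleles, and no group without them was analysed here. In Lyz2-Cre-Hdac3f/f cells (Lyz2-Cre from here on) Cre recombinase is made from the Lyz2 locus, which is active in macrophages, monocytes and neutrophils and inactive in stromal cells. In Hdac3f/f cells the alleles are floxed and the labels name no Cre. The 4 groups held 3 libraries each: Lyz2-Cre with 500 ng/ml lipopolysaccharide (LPS) for 4 h, Hdac3f/f with the same LPS, Lyz2-Cre kept 4 h in medium alone, and Hdac3f/f kept 4 h in medium alone. The labels do not say whether replicates are separate animals, so each p-value measures only the spread between these libraries.

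Totals per library lay between 16553432 and 18706990 counts, and 18159 to 21296 genes had at least 1 count. The chi-square per gene between replicates was 8.65 to 51.4, and counting error alone would give about 1. The targeted gene Hdac3 averaged 37.1 ± 2.37 CPM in LPS-treated Lyz2-Cre cells, 39.5 ± 1.08 in LPS-treated Hdac3f/f cells, 34.9 ± 1.75 in untreated Lyz2-Cre cells and 38.4 ± 1.86 in untreated Hdac3f/f cells (SD, n = 3 each), and it was not called between genotypes (edgeR adjusted p = 0.473 with LPS and 0.352 without). Its count covers the whole gene, and removal of the floxed part cannot be read from it. Lyz2, whose locus carries the Cre, had 31.0, 5181 and 5637 CPM in the untreated Lyz2-Cre libraries, so replicate 1 of that group stood apart. The 8 macrophage markers, Lyz2 among them, summed to 17781 to 19115 CPM in LPS-treated Lyz2-Cre, 21040.3 to 23002 CPM in LPS-treated Hdac3f/f, 5906 to 11267 CPM in untreated Lyz2-Cre and 14155 to 17467 CPM in untreated Hdac3f/f libraries. Without Lyz2 the other 7 summed to 11387 to 11691 CPM, 10366 to 10651 CPM, 5421 to 5875 CPM and 4837 to 5477 CPM in the same order of groups, so the lower totals of Lyz2-Cre libraries came from Lyz2. Of the 8 markers 3 were called higher and 3 lower in Lyz2-Cre cells with LPS, and 1 higher and 1 lower without. The 6 stromal markers summed to 42.0 to 58.1, 909 to 1872, 20.02 to 195 and 316 to 1539 CPM in the same order of groups, and 6 of 6 were lower in Lyz2-Cre cells with LPS and 5 of 6 without. The 6 mast cell and basophil markers summed to 94.8 to 152, 105 to 152, 58.8 to 90.1 and 36.0 to 42.4 CPM, with 6 of 6 higher in untreated Lyz2-Cre cells and 4 higher and 1 lower with LPS. Hdc, the 1 marker lower with LPS, averaged 32.0, 78.6, 7.67 and 3.78 CPM in the same order of groups. Between LPS-treated genotypes the others were higher in Lyz2-Cre cells, by log2 fold changes of 0.67 (Gata2, not called) to 1.70. The overlap of the sums with LPS thus came from Hdc. The other 4 lists, of neutrophils, dendritic cells, lymphocytes and erythroid cells, summed to at most 367 CPM in any library, and Cd209a was at 0 in all. Neutrophil sums were 53.5 to 151 CPM in untreated Lyz2-Cre, below 205 to 367 CPM in untreated Hdac3f/f, and overlapped with LPS. Lymphocyte sums were higher in Lyz2-Cre, at 9.997 to 16.9 against 3.61 to 8.35 CPM with LPS. Without LPS they were 7.70 to 11.6 against 4.67 to 6.94 CPM. Dendritic cell sums were also higher under both treatments and erythroid sums with LPS, each at most 7.71 CPM. The part of these differences in the results was not tested, and for the stromal and mast cell markers, as for any gene in bulk RNA, a change in the number of cells and one in RNA per cell cannot be told apart.

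Levels are CPM, the counts set against a library size that TMM, a factor for library composition, has scaled. A call means an adjusted p (Benjamini-Hochberg, over all tested genes) under 0.05 in the edgeR quasi-likelihood test, and log2 fold changes are given ± SE with n = 3 libraries in each group. The TMM factors were 0.896 to 0.937 for LPS-treated Lyz2-Cre, 0.716 to 0.822 for LPS-treated Hdac3f/f, 1.16 to 1.23 for untreated Lyz2-Cre and 1.12 to 1.26 for untreated Hdac3f/f libraries. Scaling by library totals alone moved the median log2 fold change of all tested genes to 0.29 from 0.02 between genotypes with LPS, to -0.72 from -0.08 for LPS in Hdac3f/f cells, to -0.46 from -0.08 for LPS in Lyz2-Cre cells and to 0.27 from 0.02 for the difference between the LPS responses. Changes reported here are relative to the TMM scale.

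Between genotypes, Abca1 was higher in Lyz2-Cre cells both with and without LPS, while most of the other genes were lower in LPS-treated Lyz2-Cre cells. With LPS, 7 of the 10 genes were called, 1 higher and 6 lower, against 32.6% of all tested genes, 15.7% higher and 16.9% lower. Their libraries did not overlap for 8 of the 10 genes, against 43.2% of all tested genes, with 1 gene above (20.5% of all) and 7 below (22.7%). The median log2 fold change of the 10 genes was -0.43, against 0.02 for all tested genes. With library totals 3 of the 10 were called, 1 higher and 2 lower, while of all tested genes 4465 were called higher and 1329 lower, against 2243 and 2413 with TMM. The call count also fell to 3 without replicate 1 or replicate 2 of LPS-treated Lyz2-Cre, or without replicate 2 of LPS-treated Hdac3f/f. Over all tested genes the calls fell in these fits too, from 4656 of 14286 to 2798 of 14712, 3071 of 14728 and 2983 of 14750.

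Without LPS, 3 of the 10 genes were called between genotypes, 2 higher and 1 lower in Lyz2-Cre cells, against 11.8% of all tested genes, 5.12% higher and 6.66% lower. The libraries did not overlap for 4 of the 10 genes, against 36.5% of all tested genes, which is near the background. Abca1 was the 1 gene still called without replicate 1 of untreated Lyz2-Cre, the library with little Lyz2, and the count was also 1 without replicate 2 or 3 of untreated Lyz2-Cre and without replicate 2 or 3 of untreated Hdac3f/f. Over all tested genes the calls fell too, from 1684 to 905, 948 and 828 without replicate 1, 2 or 3 of untreated Lyz2-Cre. They fell to 793 and 779 without replicate 2 or 3 of untreated Hdac3f/f.

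LPS raised both receptors and Srebf1 in each genotype. In Lyz2-Cre cells 6 of the 10 genes were called with LPS, 4 higher and 2 lower, against 52.9% of all tested genes, 25.2% higher and 27.7% lower. The libraries did not overlap for 9 of the 10 genes, against 65.8% of all tested genes, with 4 genes above (30.9% of all) and 5 below (34.9%). In Hdac3f/f cells 6 of the 10 genes were called, 5 higher and 1 lower, against 60.1% of all tested genes, 28.0% higher and 32.1% lower. Here the libraries did not overlap for 6 of the 10 genes, against 61.4%, with 5 genes above (28.3% of all) and 1 below (33.1%). Both shares of called genes were near the background. With library totals 9 of the 10 were called in Lyz2-Cre cells, 3 higher and 6 lower, and 8 in Hdac3f/f cells, 3 higher and 5 lower. On that scale 2109 of all tested genes were called higher and 6463 lower in Lyz2-Cre cells, against 3606 and 3958 with TMM, and 2086 higher and 8242 lower in Hdac3f/f cells, against 3993 and 4591.

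**Figure D1:**
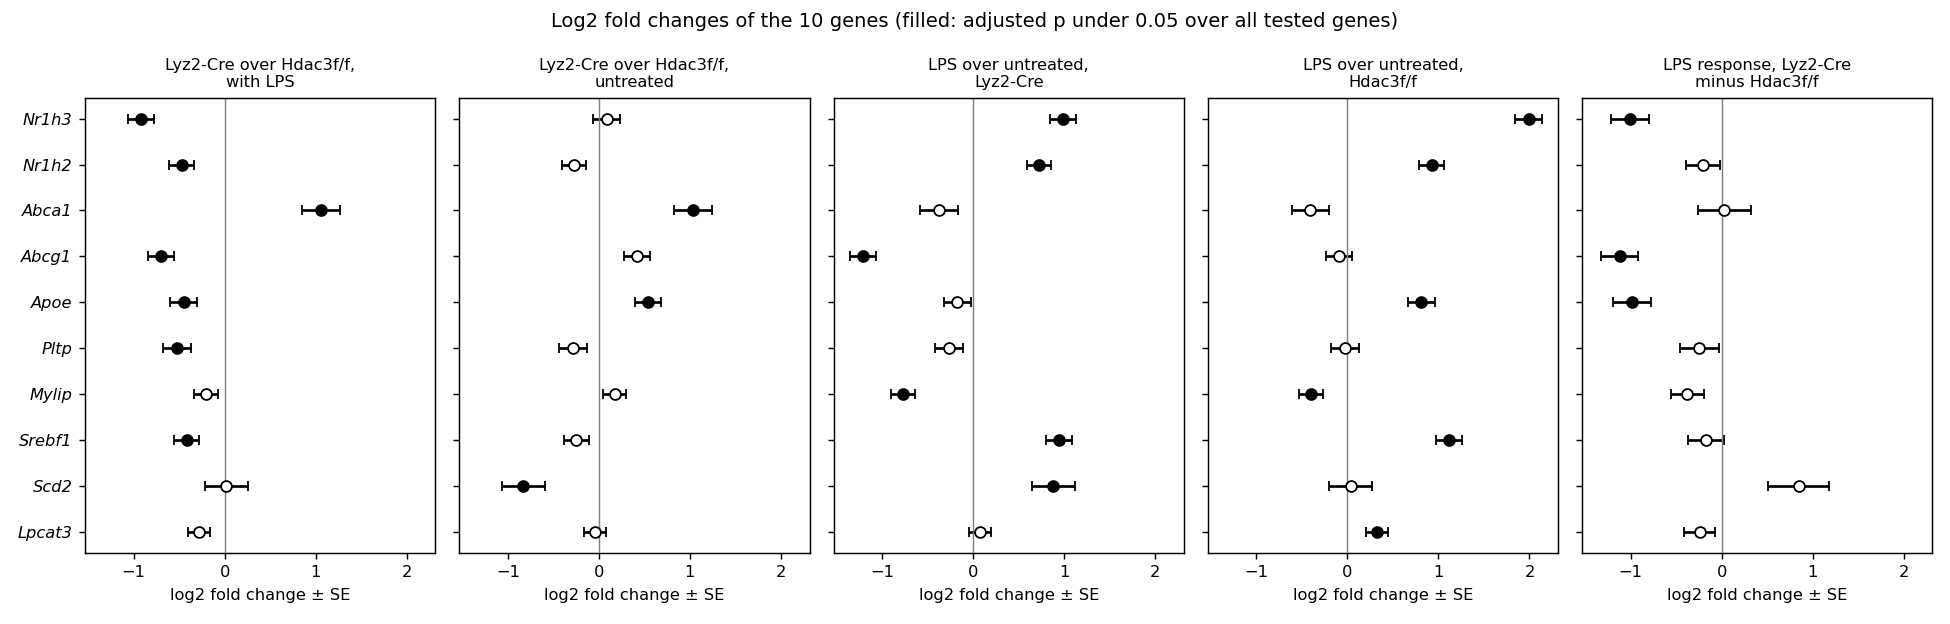
Log2 fold changes ± SE (x axis) of the 10 genes (rows) in the comparisons named above each panel, with n = 3 libraries per group and filled points for an adjusted p under 0.05. Abca1 was higher in Lyz2-Cre cells in both genotype panels, at 1.06 with LPS and 1.03 without, and Nr1h3, Abcg1 and Apoe were called in the last panel, at -1.01, -1.12 and -0.99.

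Nr1h3 (ENSMUSG00000002108, chromosome 2, 91184061 to 91202834, minus strand) encodes LXR alpha, the receptor form abundant in macrophages and liver. It had 177, 210.3 and 180.5 CPM in LPS-treated Lyz2-Cre libraries, against 342, 401 and 332 CPM in LPS-treated Hdac3f/f libraries. In medium alone its levels were 91.8, 91.5 and 103 CPM in Lyz2-Cre libraries, against 69.3, 95.1 and 106 CPM in Hdac3f/f libraries. The LPS-treated genotypes were apart and both stood above all untreated libraries, while the untreated genotypes overlapped. With LPS the level in Lyz2-Cre cells was 0.528 of that in Hdac3f/f cells (log2 fold change -0.92 ± 0.15, adjusted p = 0.000786), and without LPS the difference was 0.084 ± 0.15 (adjusted p = 0.73). LPS raised Nr1h3 by 0.99 ± 0.15 in Lyz2-Cre cells (adjusted p = 8.7e-05) and by 1.99 ± 0.15 in Hdac3f/f cells (adjusted p = 1.22e-07). With library totals these rises were smaller, at 0.60 (adjusted p = 0.00125) and 1.36 (adjusted p = 1.16e-06).

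Nr1h2 (ENSMUSG00000060601, chromosome 7, 44549616 to 44553951, minus strand) encodes LXR beta, the form made in most tissues. Its levels were 137, 136 and 144 CPM in LPS-treated Lyz2-Cre libraries, against 161, 230.2 and 188 CPM in LPS-treated Hdac3f/f libraries. Without LPS they were 86.2, 80.1 and 86.3 CPM in Lyz2-Cre libraries, against 85.4, 106 and 113 CPM in Hdac3f/f libraries. The LPS-treated groups were apart from each other and above all untreated libraries, and the untreated groups overlapped. With LPS, Nr1h2 was lower in Lyz2-Cre cells by a log2 fold change of -0.47 ± 0.13 (adjusted p = 0.0177), a call that ended with library totals (-0.19) and without replicate 1 or 2 of LPS-treated Lyz2-Cre or replicate 2 of LPS-treated Hdac3f/f. LPS raised it by 0.72 ± 0.13 in Lyz2-Cre cells (adjusted p = 0.000544) and by 0.93 ± 0.13 in Hdac3f/f cells (adjusted p = 5.43e-05). With library totals these rises were smaller, at 0.33 (adjusted p = 0.00998) and 0.28 (adjusted p = 0.0184).

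**Figure D2:**
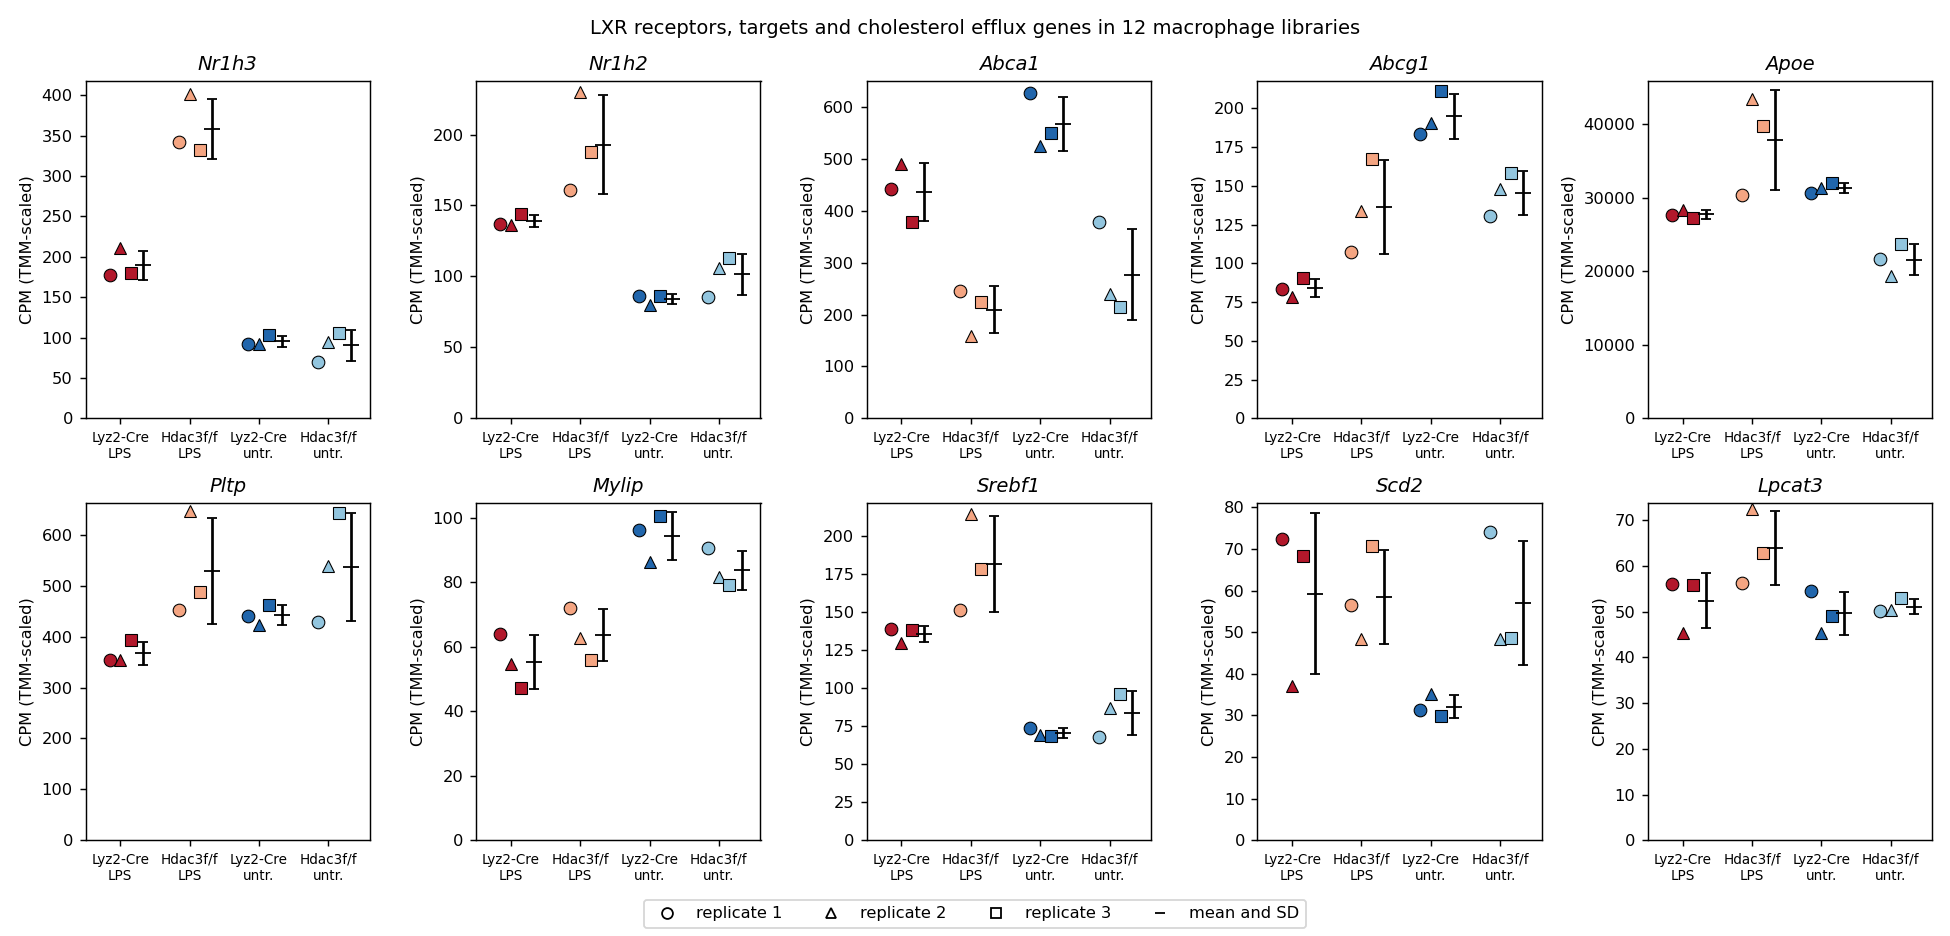
TMM-scaled CPM (y axis, from 0) of each gene in the 12 libraries, by genotype and treatment (x axis), with 1 symbol per replicate number and bars for mean and SD (n = 3). Abca1 libraries lay between 378 and 489.5 CPM in LPS-treated Lyz2-Cre and between 526 and 626 CPM in untreated Lyz2-Cre cells, each above the Hdac3f/f libraries of the same treatment.

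Abca1 (ENSMUSG00000015243, chromosome 4, 53030787 to 53159895, minus strand) encodes the transporter that loads cholesterol and phospholipid onto lipid-poor apolipoproteins. It had 443, 489.5 and 378 CPM in LPS-treated Lyz2-Cre libraries, against 245, 159 and 224 CPM in LPS-treated Hdac3f/f libraries. Without LPS it had 626, 526 and 549 CPM in Lyz2-Cre libraries, against 378, 239 and 214 CPM in Hdac3f/f libraries. In order of mean level untreated Lyz2-Cre came first, then LPS-treated Lyz2-Cre, untreated Hdac3f/f and LPS-treated Hdac3f/f, and only the Hdac3f/f groups overlapped, although the lowest LPS-treated Lyz2-Cre and the highest untreated Hdac3f/f library were level at 378 CPM. The level in Lyz2-Cre cells was 2.09 times that in Hdac3f/f cells with LPS (log2 fold change 1.06 ± 0.21, adjusted p = 0.00288) and 2.05 times without (1.03 ± 0.21, adjusted p = 0.00867). These 2 calls held in all 18 alternatives, with values from 0.90 to 1.32 with LPS and from 0.88 to 1.32 without. Leaving out replicate 1 of untreated Lyz2-Cre gave 0.95 (adjusted p = 0.0319), and leaving out replicate 1 of untreated Hdac3f/f, its highest library, gave 1.32 (adjusted p = 0.00082). The LPS response was -0.38 ± 0.21 in Lyz2-Cre cells (adjusted p = 0.144) and -0.41 ± 0.21 in Hdac3f/f cells (adjusted p = 0.109), and the difference between the responses was 0.029 ± 0.29 (adjusted p = 0.971). Neither response was called, but both were with library totals, at -0.76 in Lyz2-Cre (adjusted p = 0.0184) and -1.05 in Hdac3f/f cells (adjusted p = 0.00227). The Lyz2-Cre response was also called with only its groups in the fit, and that of Hdac3f/f cells with no filter and without replicate 3 of untreated Hdac3f/f (adjusted p = 0.0385), while without replicate 1 of untreated Hdac3f/f it was -0.11 (adjusted p = 0.594).

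The 250 bases before the start of Abca1 are shown because it was the only one of the 10 genes called higher in Lyz2-Cre cells under both treatments, and those of a start of Srebf1 because these were the 2 genes with a match to the LXR element. The sequences are RefSeq's for the mouse build GRCm38.p6, on the strand of the gene, at chr4:53159896-53160145 (minus strand) for Abca1 and chr11:60210472-60210721 (minus strand) for Srebf1, and capitals mark the match.
Abca1: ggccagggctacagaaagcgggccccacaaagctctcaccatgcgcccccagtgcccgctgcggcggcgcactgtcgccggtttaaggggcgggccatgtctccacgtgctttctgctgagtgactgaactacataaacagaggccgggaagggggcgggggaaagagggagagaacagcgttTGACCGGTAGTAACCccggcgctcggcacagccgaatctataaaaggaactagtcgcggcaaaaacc
Srebf1: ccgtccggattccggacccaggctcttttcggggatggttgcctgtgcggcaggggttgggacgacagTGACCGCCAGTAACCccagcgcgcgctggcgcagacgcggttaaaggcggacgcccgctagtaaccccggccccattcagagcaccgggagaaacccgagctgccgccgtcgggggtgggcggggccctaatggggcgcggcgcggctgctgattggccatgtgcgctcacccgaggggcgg
The match was searched as a direct repeat of the letters GGTNA with a gap of 5 bases, on both strands, which also takes in every full repeat of AGGTCA with a gap of 4. It lay on the strand opposite to the gene, 67 to 53 bases before the Abca1 start and 182 to 168 bases before the Srebf1 start, which is inside the deposited span of Srebf1 and downstream of its other starts. On the strand that holds the repeat both read GGTTA, 5 bases, GGTCA:
Abca1 element: GGTTACTACCGGTCA
Srebf1 element: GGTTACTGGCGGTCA
Read along the gene instead, as printed in the windows, the elements were identical at 13 of 15 bases and differed by G7C and T8C from Abca1 to Srebf1, with positions counted from 1 at the left end. Among 32851 mouse promoter windows of the same length 0.621% held this repeat.

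Of the other motifs searched on both strands, the strict repeat of AGGTCA with a gap of 4 bases was in 0.0152% of all windows and in none of the members. The sterol response element TCACNCCAC, bound by the SREBP factors, was in 1.05% of windows and in none of the members. The kappa B pattern of GGG, 5 free bases and CC was in 45.8% of all windows, and the E-box CANNTG in 66.2%. Promoters of 8 of the 10 genes could be matched, with 13 windows in all, and Abcg1 and Scd2 were not among them. The matches describe letters in these windows and say nothing of binding.

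**Figure D3:**
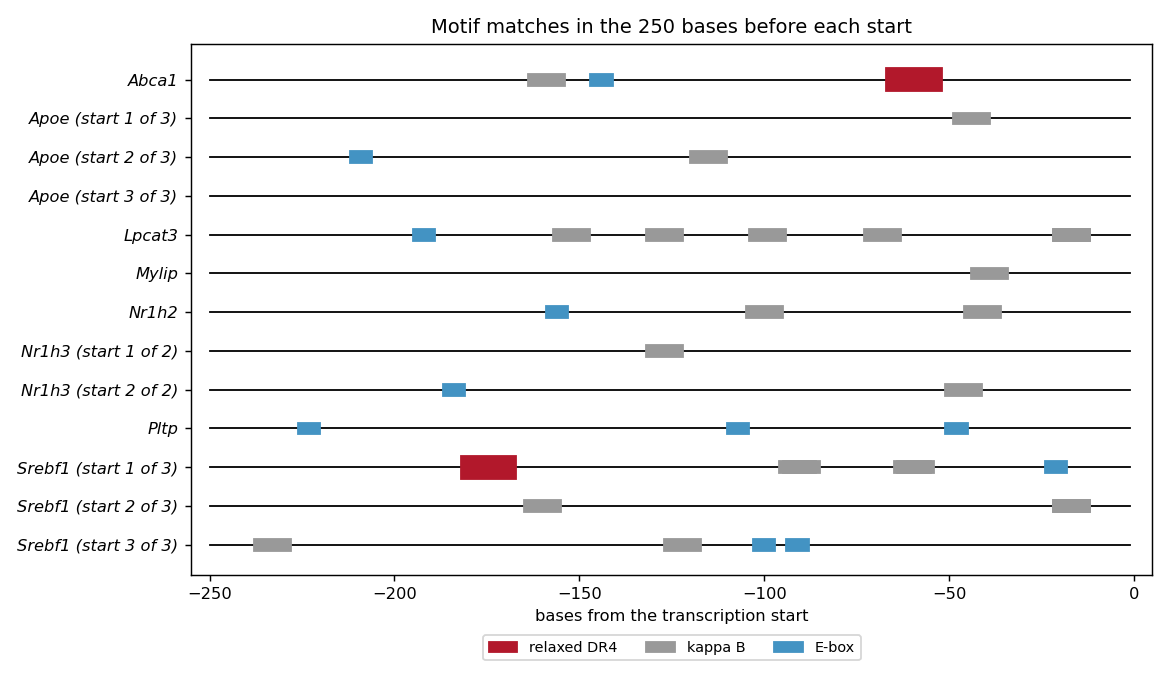
Positions of motif matches (coloured boxes) in the 250 bases before each tabled start, with bases from the start on the x axis and 1 row per start of the 8 matched genes. The relaxed DR4 repeat is drawn at -67 to -53 in Abca1 and at -182 to -168 in 1 of the 3 starts of Srebf1, and in no other row.

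Abcg1 (ENSMUSG00000024030, chromosome 17, 31057698 to 31115777, plus strand) encodes the transporter that passes cholesterol on to mature HDL particles. It had 83.1, 78.5 and 90.5 CPM in LPS-treated Lyz2-Cre libraries, against 107, 134 and 168 CPM in LPS-treated Hdac3f/f libraries. In the untreated groups it had 183, 190.3 and 211 CPM in Lyz2-Cre libraries, against 130.2, 148 and 158 CPM in Hdac3f/f libraries. The Lyz2-Cre libraries were thus all below the Hdac3f/f libraries with LPS and all above them without, and the Hdac3f/f groups overlapped each other. With LPS Abcg1 was lower in Lyz2-Cre cells, at -0.70 ± 0.14 (adjusted p = 0.00374), and without LPS the difference was 0.42 ± 0.14 and missed the threshold (adjusted p = 0.074). It was past the threshold with library totals, with only the untreated groups in the fit, and without replicate 1 of LPS-treated Hdac3f/f (adjusted p = 0.0371). LPS lowered Abcg1 in Lyz2-Cre cells by a log2 fold change of -1.21 ± 0.14 (adjusted p = 1.32e-05), and in Hdac3f/f cells the value was -0.093 ± 0.14 (adjusted p = 0.597), or -0.73 (adjusted p = 0.000193) with library totals.

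Apoe (ENSMUSG00000002985, chromosome 7, 19696109 to 19699188, minus strand) encodes apolipoprotein E, which macrophages secrete as an acceptor of cholesterol. It held the most counts of any gene in all 12 libraries, between 2.29% and 3.89% of a library. Its levels were 27601, 28399 and 27214 CPM in LPS-treated Lyz2-Cre libraries, against 30324, 43457 and 39753 CPM in LPS-treated Hdac3f/f libraries. Without LPS they were 30613, 31321 and 32028.5 CPM in Lyz2-Cre libraries, against 21641, 19399 and 23665 CPM in Hdac3f/f libraries. As for Abcg1, the Lyz2-Cre libraries were all below the Hdac3f/f libraries with LPS and all above them without. The log2 fold change between genotypes was -0.45 ± 0.15 with LPS (adjusted p = 0.0341) and 0.54 ± 0.15 without (adjusted p = 0.0335).

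Both genotype calls of Apoe were close to the threshold. With LPS the call ended with library totals (-0.17), with only the groups compared in the fit, and without any 1 of the LPS-treated Lyz2-Cre libraries or replicate 2 or 3 of LPS-treated Hdac3f/f. Without LPS it ended with DESeq2 size factors, without any 1 of the 6 Lyz2-Cre libraries, and without replicate 2 or 3 of untreated Hdac3f/f (adjusted p up to 0.148). LPS raised Apoe in Hdac3f/f cells by 0.81 ± 0.15 (adjusted p = 0.000359), or by 0.16 with library totals (adjusted p = 0.178), and the value in Lyz2-Cre cells was -0.18 ± 0.15 (adjusted p = 0.335), or -0.56 with library totals (adjusted p = 0.000605).

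Pltp (ENSMUSG00000017754, chromosome 2, 164839518 to 164857711, minus strand) encodes the phospholipid transfer protein, which moves phospholipid onto HDL. It had 354, 355 and 393 CPM in LPS-treated Lyz2-Cre libraries, against 452, 647 and 487 CPM in LPS-treated Hdac3f/f libraries. Untreated, it had 441, 423 and 462 CPM in Lyz2-Cre libraries, against 429.8, 539 and 642 CPM in Hdac3f/f libraries. Only the LPS-treated Lyz2-Cre group stood apart, below the other 3 groups. The LPS response was -0.27 ± 0.15 in Lyz2-Cre (adjusted p = 0.166) and -0.022 ± 0.15 in Hdac3f/f cells (adjusted p = 0.915). Neither was called, but both were with library totals, at -0.66 in Lyz2-Cre (adjusted p = 0.000402) and -0.66 in Hdac3f/f cells (adjusted p = 0.000261). The Lyz2-Cre response was also called with only its groups in the fit (adjusted p = 0.0161). With LPS Pltp was lower in Lyz2-Cre cells by a log2 fold change of -0.53 ± 0.15 (adjusted p = 0.0217), a call that ended with library totals (-0.25) and without replicate 1 or 2 of LPS-treated Lyz2-Cre or replicate 2 of LPS-treated Hdac3f/f. The span of Pltp overlaps by 1515 bases the span of Ctsa on the other strand, which had 13824 to 28930 counts per library against 5872 to 12563 for Pltp. Whether the counting used strand is not given in the sources used here, so reads in the overlap cannot be assigned with certainty.

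Mylip (ENSMUSG00000038175, chromosome 13, 45389742 to 45412022, plus strand) encodes a ubiquitin ligase that is induced by LXR. It had 63.9, 54.6 and 47.2 CPM in LPS-treated Lyz2-Cre libraries, against 72.1, 62.8 and 56.0 CPM in LPS-treated Hdac3f/f libraries. Its untreated levels were 96.3, 86.2 and 101 CPM in Lyz2-Cre libraries, against 90.7, 81.6 and 79.1 CPM in Hdac3f/f libraries. The genotypes overlapped under both treatments, and the LPS-treated libraries were below the untreated ones in each genotype. LPS lowered Mylip in Lyz2-Cre cells by a log2 fold change of -0.77 ± 0.13 (adjusted p = 0.000239) and in Hdac3f/f cells by one of -0.40 ± 0.13 (adjusted p = 0.0169). The Hdac3f/f call ended without replicate 3 of LPS-treated or replicate 1 of untreated Hdac3f/f.

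Srebf1 (ENSMUSG00000020538, chromosome 11, 60199089 to 60222581, minus strand) encodes SREBP1, the transcription factor of fatty acid synthesis. It had 139, 129.5 and 139 CPM in LPS-treated Lyz2-Cre libraries, against 152, 215 and 178 CPM in LPS-treated Hdac3f/f libraries. In medium alone it had 74.1, 69.0 and 68.6 CPM in Lyz2-Cre libraries, against 68.2, 86.7 and 96.5 CPM in Hdac3f/f libraries. All LPS-treated libraries were above all untreated ones, and the untreated genotypes overlapped. LPS raised Srebf1 by 0.94 ± 0.14 in Lyz2-Cre cells (adjusted p = 9.19e-05) and by 1.12 ± 0.14 in Hdac3f/f cells (adjusted p = 1.58e-05). With library totals these rises were smaller, at 0.56 (adjusted p = 0.000548) and 0.48 (adjusted p = 0.00117). With LPS it was lower in Lyz2-Cre cells by a log2 fold change of -0.42 ± 0.14 (adjusted p = 0.036), and this call ended in 9 of 18 alternatives, among them library totals (-0.14), the fit of the LPS-treated groups alone and the removal of any 1 LPS-treated Lyz2-Cre library. The other libraries whose removal ended it were replicates 2 and 3 of LPS-treated Hdac3f/f, replicate 3 of untreated Lyz2-Cre and replicate 2 of untreated Hdac3f/f (adjusted p up to 0.161). The count sums the starts of Srebf1, so its isoforms could not be told apart. Its span also overlaps by 109 bases that of Rai1 on the other strand, which had 458 to 992 counts per library against 1380 to 2752. Reads there cannot be assigned with certainty.

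Scd2 (ENSMUSG00000025203, chromosome 19, 44293676 to 44306864, plus strand) encodes a stearoyl-CoA desaturase, which puts a double bond into saturated fatty acids. It had 72.3, 37.0 and 68.4 CPM in LPS-treated Lyz2-Cre libraries, against 56.6, 48.3 and 70.6 CPM in LPS-treated Hdac3f/f libraries. Without LPS it had 31.4, 35.1 and 29.8 CPM in Lyz2-Cre libraries, against 74.1, 48.3 and 48.6 CPM in Hdac3f/f libraries. Untreated Lyz2-Cre was the only group apart from the rest, below all other libraries. Without LPS Scd2 was lower in Lyz2-Cre cells by a log2 fold change of -0.83 ± 0.24 (adjusted p = 0.0428), and this call ended with library totals and without any 1 of the 6 untreated libraries (adjusted p at least 0.0622). LPS raised Scd2 in Lyz2-Cre cells by 0.88 ± 0.24 (adjusted p = 0.0078), or by 0.49 with library totals (adjusted p = 0.127), and the value in Hdac3f/f cells was 0.037 ± 0.24 (adjusted p = 0.909). How the authors' counting split reads among Scd2 and its close paralogs is not given in the sources used here.

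Lpcat3 (ENSMUSG00000004270, chromosome 6, 124663027 to 124704418, plus strand) encodes a lysophosphatidylcholine acyltransferase that places polyunsaturated chains in membrane phospholipids. It had the smallest spread of group means among the 10 genes, 1.29 times from lowest to highest. Its levels were 56.0, 45.4 and 55.8 CPM in LPS-treated Lyz2-Cre libraries, against 56.3, 72.3 and 62.7 CPM in LPS-treated Hdac3f/f libraries. Without LPS it had 54.5, 45.2 and 49.0 CPM in Lyz2-Cre libraries, against 50.01, 50.3 and 52.9 CPM in Hdac3f/f libraries. The LPS-treated genotypes were apart by a small margin and the other neighbouring groups overlapped. LPS raised Lpcat3 in Hdac3f/f cells by 0.32 ± 0.12 (adjusted p = 0.0352), which turned to -0.32 (adjusted p = 0.0126) with library totals and ended in 7 other alternatives, 5 of them the removal of replicate 2 or 3 of LPS-treated or of any replicate of untreated Hdac3f/f. Between genotypes with LPS the value was -0.28 ± 0.12 and was not called (adjusted p = 0.0889). As for Pltp, reads in an overlap cannot be assigned with certainty. The span of Lpcat3 shares 334 bases with that of Emg1 on the other strand, which had 369 to 634 counts per library against 785 to 1153.

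The LPS responses of the genotypes differed for 3 of the 10 genes, all 3 with a lower response in Lyz2-Cre cells, against 8.12% of all tested genes, 2.58% higher and 5.54% lower. With library totals the same count was 3, while of all tested genes 1134 were called higher and 448 lower, against 369 and 791 with TMM. The difference between responses, Lyz2-Cre minus Hdac3f/f, was -1.12 ± 0.20 for Abcg1 (adjusted p = 0.00565), -1.01 ± 0.20 for Nr1h3 (adjusted p = 0.0111) and -0.99 ± 0.21 for Apoe (adjusted p = 0.0129). The calls of Abcg1 and Nr1h3 held in all 17 alternatives, and that of Apoe ended in 1, without replicate 2 of untreated Hdac3f/f (adjusted p = 0.0502). Without replicate 1 of untreated Lyz2-Cre, the library with little Lyz2, the differences were -1.16 for Abcg1, -1.03 for Nr1h3 and -0.999 for Apoe. On the TMM scale the directions behind them were unlike each other: Nr1h3 rose with LPS in both genotypes, Abcg1 fell in Lyz2-Cre cells, and Apoe rose in Hdac3f/f cells. With library totals Nr1h3 still rose in both genotypes, while Abcg1 was also called lower with LPS in Hdac3f/f cells (-0.73). On that scale Apoe was not called in Hdac3f/f cells (0.16) and was called lower in Lyz2-Cre cells (-0.56). For Scd2 the difference was 0.85 ± 0.34 and missed the threshold (adjusted p = 0.152).

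**Figure D4:**
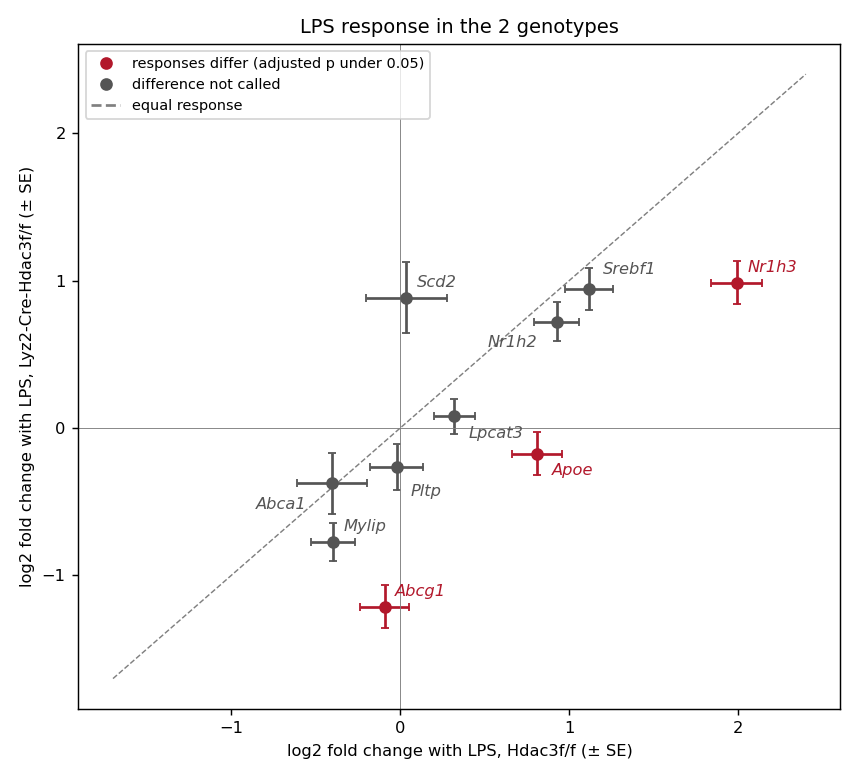
Log2 fold change with LPS ± SE in Lyz2-Cre-Hdac3f/f (y axis) against that in Hdac3f/f (x axis) for the 10 genes, n = 3 libraries per group, with a dashed line where both are equal and red points where the difference was called. Abcg1, Nr1h3 and Apoe lie below the line, and Abca1 lies on it, at -0.38 in Lyz2-Cre and -0.41 in Hdac3f/f cells.

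Within groups the 10 genes did not vary alike. The coefficient of variation over the 3 libraries ran from 2.18% for Apoe to 32.6% for Scd2 in LPS-treated Lyz2-Cre, from 10.4% for Nr1h3 to 22.1% for Abcg1 in LPS-treated Hdac3f/f, from 2.26% for Apoe to 9.35% for Lpcat3 in untreated Lyz2-Cre, and from 3.10% for Lpcat3 to 32.0% for Abca1 in untreated Hdac3f/f libraries. Replicate 1 of untreated Hdac3f/f had the highest Abca1 and Scd2 of its group and the lowest Nr1h3, Nr1h2, Pltp and Srebf1. The same library had the highest TMM factor of its group (1.26), the most genes detected (21296) and the largest sum of stromal markers (1539 CPM, against 316 and 496 CPM). Replicate 1 of LPS-treated Hdac3f/f likewise had the highest Abca1 and TMM factor (0.822) of its group and the lowest Nr1h2, Apoe, Pltp and Srebf1, while its stromal sum was the lowest of its group, at 909 CPM. The part of library composition in these values was not tested.

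Per length, on the authors' deposited FPKM scale, Apoe was the most abundant of the 10 genes in each group, at 12811 ± 300.4 in LPS-treated Lyz2-Cre, 18075.5 ± 3440.2 in LPS-treated Hdac3f/f, 14087 ± 375 in untreated Lyz2-Cre and 9877 ± 1073 in untreated Hdac3f/f cells (SD, n = 3 each). Pltp came second, with group means from 142 to 211 FPKM, and Scd2 last, with group means from 5.66 to 10.9 FPKM. The order of the transporters depended on the group. Abca1 had 41.6 ± 5.26 FPKM and Abcg1 20.4 ± 1.54 in LPS-treated Lyz2-Cre cells, while Abca1 had 20.6 ± 4.27 and Abcg1 34.3 ± 8.03 in LPS-treated Hdac3f/f cells, and in neither group did their libraries overlap. Without LPS they overlapped, at 52.6 ± 4.71 for Abca1 and 46.1 ± 3.57 for Abcg1 in Lyz2-Cre and 26.1 ± 7.98 and 35.0 ± 3.87 in Hdac3f/f cells. Nr1h3 stood above Nr1h2 in all 4 groups by mean, and their libraries overlapped only in untreated Hdac3f/f cells.

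Likeness across the 12 libraries was measured as the root mean square difference of log2 CPM after centring each gene. It was taken over 8935 genes with at least 5 CPM on average, leaving out symbols that are clone or predicted names. Srebf1 and Nr1h2 were the closest pair of the 10 genes, at 0.113, and Nr1h2 was at rank 33 by likeness to Srebf1 among 8934 other genes. The genes closest to Srebf1 were Pfn1 (0.0492), an actin-binding protein gene, Arl8a (0.0602) and Gnb2 (0.0649). Closest to Abca1 were Lars (0.186), Heatr1 (0.188) and Gzf1 (0.206), and its nearest among the 10 genes was Mylip, at 0.604, with rank 2412. Closest to Abcg1 were Tmem140 (0.174), Slc30a1 (0.183) and Coro7 (0.200), and closest to Apoe were Zfp276 (0.154), Stoml1 (0.159) and Gmeb2 (0.166). These values describe 12 libraries in 4 groups and carry no test.

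The other genes of the pathway were taken as 8 lists with 85 genes, of which 71 were tested. Between genotypes 32 were called with LPS, 15 higher and 17 lower, which is 45.1% against 32.6% of all tested genes. Without LPS 21 were called, 8 higher and 13 lower, which is 29.6% against 11.8%. With library totals these counts were 28 higher and 7 lower with LPS, and 7 higher and 13 lower without. Of all tested genes 4465 were called higher and 1329 lower with LPS on that scale, and 627 and 1014 without. Without replicate 1 of untreated Lyz2-Cre the count without LPS was 13, and it was 13 without replicate 3 of that group and 12 without replicate 2 of untreated Hdac3f/f. Over all tested genes the calls in these fits fell from 1684 to 905, 828 and 793, in the same order. With LPS 45 were called in Lyz2-Cre cells, 20 higher and 25 lower, and 49 in Hdac3f/f cells, 21 higher and 28 lower, which is 63.4% and 69.0% of the lists against 52.9% and 60.1% of all tested genes. With library totals the LPS counts were 15 higher and 40 lower in Lyz2-Cre cells, and 12 higher and 43 lower in Hdac3f/f cells. On that scale 2109 of all tested genes were called higher and 6463 lower in Lyz2-Cre cells, and 2086 and 8242 in Hdac3f/f cells. The examples that follow were named by a rule, the 3 lowest p-values among the called genes of each list and comparison, and their calls held in all alternatives unless stated. The counts of each list stand beside these shares of all tested genes. Between genotypes 15.7% were called higher and 16.9% lower with LPS, and 5.12% higher and 6.66% lower without. LPS raised 25.2% and lowered 27.7% in Lyz2-Cre cells, and raised 28.0% and lowered 32.1% in Hdac3f/f cells. Levels are means ± SD over 3 libraries.

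Among the RXR partners, Rxra and Rxrb were tested, and both fell with LPS in both genotypes. Rxra averaged 66.2 ± 6.38 CPM in LPS-treated Lyz2-Cre and 66.2 ± 4.67 in LPS-treated Hdac3f/f cells, against 238 ± 9.16 in untreated Lyz2-Cre and 199.7 ± 11.9 in untreated Hdac3f/f cells. The log2 fold change with LPS was -1.85 ± 0.10 in Lyz2-Cre (adjusted p = 9.48e-09) and -1.59 ± 0.10 in Hdac3f/f cells (adjusted p = 2.18e-08). Neither gene was called between genotypes.

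Of 14 further LXR targets tested, 3 were higher and 2 lower in Lyz2-Cre cells with LPS, and 2 were higher and 5 lower without. Lpl, the lipase that frees fatty acids from lipoproteins, was lower in untreated Lyz2-Cre cells, at 441 ± 78.6 against 973 ± 97.0 CPM in untreated Hdac3f/f cells (log2 fold change -1.14 ± 0.17, adjusted p = 0.00141). Scd1, a desaturase gene that also counts among the relatives of Scd2, was low in all groups and lower in Lyz2-Cre cells under both treatments, at -2.40 ± 0.58 with LPS (adjusted p = 0.00831) and -3.47 ± 0.60 without (adjusted p = 0.00416). Scd1 had 0.483, 0.578 and 1.003 CPM in LPS-treated Lyz2-Cre libraries, whose stromal markers summed to 42.0, 58.1 and 57.7 CPM, against 2.43, 2.81 and 5.66 CPM in LPS-treated Hdac3f/f libraries, with stromal sums of 909, 1257 and 1872 CPM. Without LPS it had 0.194, 0.578 and 0.249 CPM in Lyz2-Cre libraries, with stromal sums of 20.02, 195 and 84.5 CPM, against 7.16, 1.996 and 2.51 CPM in Hdac3f/f libraries, with stromal sums of 1539, 316 and 496 CPM. Higher Scd1 thus went with higher stromal sums between genotypes, and the part of stromal cells in its change was not tested. Cd5l, which encodes a secreted macrophage protein, had 12.3, 19.9 and 78.2 CPM in untreated Lyz2-Cre libraries, against 136, 372 and 448 CPM in untreated Hdac3f/f libraries (-3.12 ± 0.60, adjusted p = 0.0073). Elovl5, a fatty acid elongase, and Arl4c, a small GTPase, were higher in Lyz2-Cre cells with LPS, at 0.40 ± 0.10 (adjusted p = 0.0107) and 0.57 ± 0.16 (adjusted p = 0.0174), the Arl4c call ending without replicate 1 or 2 of LPS-treated Lyz2-Cre. With LPS the desaturase Fads1 fell in both genotypes, by a log2 fold change of -2.52 ± 0.12 in Lyz2-Cre and -2.59 ± 0.13 in Hdac3f/f cells, while the transporter Abca7 rose, by 1.04 ± 0.09 and 1.21 ± 0.09.

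Of the 6 corepressor subunits, 2 were higher and 1 lower in Lyz2-Cre cells with LPS, and 2 were higher without. Tbl1xr1, a WD40 subunit of the NCoR and SMRT complexes, averaged 30.6 ± 2.37 CPM in LPS-treated Lyz2-Cre and 13.5 ± 3.17 in LPS-treated Hdac3f/f cells, and 68.6 ± 7.30 CPM in untreated Lyz2-Cre and 36.8 ± 6.96 in untreated Hdac3f/f cells. The difference was 1.17 ± 0.18 with LPS (adjusted p = 0.000602) and 0.90 ± 0.17 without (adjusted p = 0.00603). Of the 7 tested coactivators, 1 was higher and 2 lower in Lyz2-Cre cells with LPS, and 1 was higher without. Ncoa3, a p160 coactivator, averaged 96.3 ± 3.77 CPM in LPS-treated Lyz2-Cre and 129 ± 11.3 in LPS-treated Hdac3f/f cells (-0.42 ± 0.10, adjusted p = 0.00678), a call that ended with library totals (-0.16).

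Of 11 tested genes of cholesterol storage, lysosomal export and oxysterols, 2 were higher and 5 lower in Lyz2-Cre cells with LPS, and 1 was higher without. LPS itself raised 2 and lowered 6 of them in Lyz2-Cre cells, and raised 3 and lowered 6 in Hdac3f/f cells, beside LPS calls for 52.9% and 60.1% of all tested genes. Nceh1, a hydrolase of stored cholesteryl esters, fell by a log2 fold change of -3.08 ± 0.11 in Lyz2-Cre and -2.65 ± 0.11 in Hdac3f/f cells. Cyp27a1, which makes the LXR ligand 27-hydroxycholesterol, averaged 3.25 ± 0.885 CPM in LPS-treated Lyz2-Cre and 8.17 ± 1.94 CPM in Hdac3f/f cells given LPS (-1.32 ± 0.22, adjusted p = 0.00102). Ch25h, which makes 25-hydroxycholesterol, rose with LPS by 6.74 ± 0.42 in Hdac3f/f cells (adjusted p = 1.91e-08), and with LPS it was lower in Lyz2-Cre cells, at 20.4 ± 2.60 CPM in Lyz2-Cre and 51.5 ± 17.3 CPM in Hdac3f/f cells (-1.34 ± 0.29, adjusted p = 0.0049). Soat2, a cholesterol acyltransferase gene, was the only one of this list called between untreated genotypes, at 11.5 ± 1.71 CPM in Lyz2-Cre and 5.13 ± 1.26 in Hdac3f/f cells (1.16 ± 0.22, adjusted p = 0.00582).

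Of the 9 lipoprotein and scavenger receptors, 4 were higher and 1 lower in Lyz2-Cre cells with LPS, and 1 was higher and 3 lower without. Marco, a scavenger receptor for bacteria and modified lipoproteins, was higher in Lyz2-Cre cells without LPS, at 543 ± 97.0 CPM in Lyz2-Cre and 136 ± 35.8 CPM in Hdac3f/f cells (1.99 ± 0.20, adjusted p = 0.000125). Cd36, the receptor for oxidised lipoproteins and fatty acids, was higher in Lyz2-Cre cells with LPS, at 449 ± 96.2 CPM in Lyz2-Cre and 231 ± 40.5 CPM in Hdac3f/f cells (0.96 ± 0.18, adjusted p = 0.00192).

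The SREBP2 axis, which makes and takes up cholesterol when the cell is short of it, had 10 tested genes. In Lyz2-Cre cells 2 were higher and 4 lower with LPS, and 4 were lower without. Among those lower without LPS were Insig1, which holds back SREBP activation (-0.80 ± 0.12, adjusted p = 0.00196), and Srebf2, which encodes SREBP2 itself (-0.70 ± 0.13, adjusted p = 0.0054). With LPS 7 of the 10 rose and 2 fell in Lyz2-Cre cells, and 6 rose and 3 fell in Hdac3f/f cells, with Insig1 up by 1.73 ± 0.12 and 1.54 ± 0.12. Of all tested genes 25.2% rose and 27.7% fell in Lyz2-Cre cells, and 28.0% rose and 32.1% fell in Hdac3f/f cells. Of the 14 tested relatives of the members by gene family, 1 was higher and 3 lower in Lyz2-Cre cells with LPS, and 1 was higher and 2 lower without. Abca3, a transporter of phospholipid, was higher with LPS, at 99.3 ± 4.40 CPM in Lyz2-Cre and 52.2 ± 4.12 in Hdac3f/f cells (0.93 ± 0.09, adjusted p = 5.76e-05), and Lpcat2, an acyltransferase, was higher without, at 125 ± 19.3 and 83.2 ± 15.4 CPM (0.58 ± 0.14, adjusted p = 0.0182), a call that ended without replicate 3 of untreated Lyz2-Cre or replicate 2 or 3 of untreated Hdac3f/f and with only the untreated groups in the fit.

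**Figure D5:**
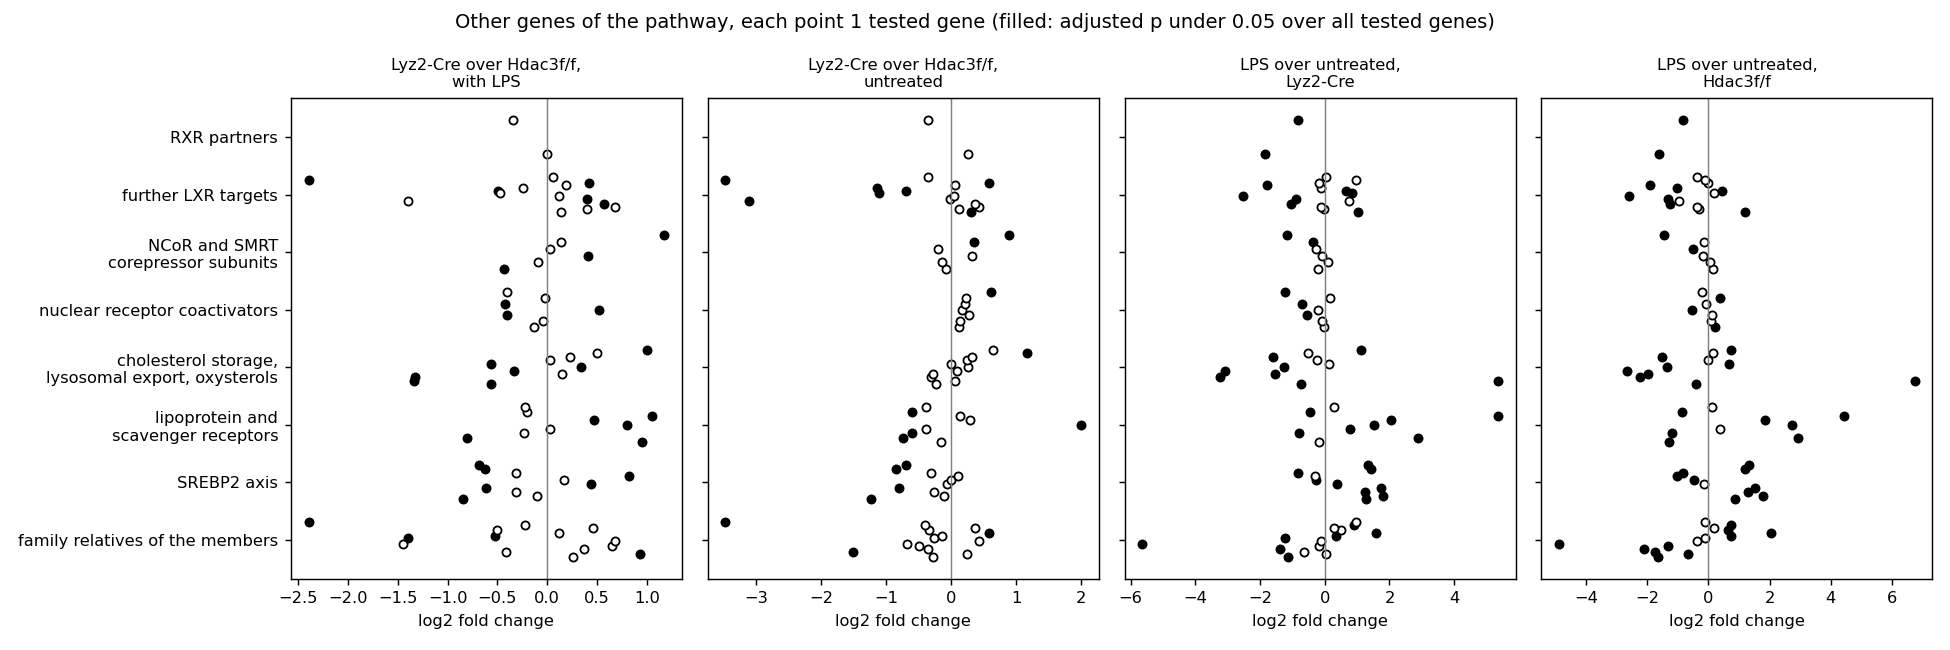
Log2 fold changes (x axis, with its own range in each panel) of the tested genes of 8 pathway lists (rows) in the 4 comparisons named above the panels, filled where the adjusted p was under 0.05. In the genotype panels Scd1 lies farthest to the left, at -2.40 with LPS and -3.47 without, and in the Hdac3f/f panel of LPS Ch25h lies farthest to the right, at 6.74.

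The authors' deposited table gives its own log2 ratios of the genotypes, with Hdac3f/f over Lyz2-Cre, so that a negative value means higher in Lyz2-Cre cells. Of the 10 genes 7 had an adjusted p under 0.05 there with LPS and 4 without. The authors' deposited table has Abca1 at -1.06 with LPS (adjusted p = 2.09e-07) and past the threshold in the same direction without (adjusted p = 5.9e-06). In the authors' deposited table Abcg1 was the gene past the threshold without LPS that was not called here, at -0.39 (adjusted p = 0.014).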

How the data were processed

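RNA of 12 macrophage libraries, 3 per group, was sequenced as total RNA extracted with TRIzol, per the labels' protocols. TopHat2 and the mouse build mm10 are named in the submitters' processing notes, and the counter, its strand setting and versions are not given in the sources used here. The deposited table holds raw counts per gene and library, FPKM values, and the authors' log2 ratios and p-values of the genotypes. The deposited FPKM equal the count divided by gene length and by a library size of the authors' own. The authors' deposited log2 ratios and p-values are quoted only where named. No per-sample column was left unused.

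Counts were tested with edgeR 4.0.16 (R 4.3.3): filterByExpr, TMM scaling, 1 coefficient per group, a quasi-likelihood fit to all 12 libraries, and Benjamini-Hochberg adjustment over 14286 genes at 0.05. The SE is the size of the log2 fold change divided by the square root of F. The script was tested on simulated counts with known changes between the untreated genotypes only. That simulation held no LPS effect, no difference between LPS responses and no shift in library composition. The comparisons were the genotypes with and without LPS, LPS within each genotype, and the difference between the LPS responses. Alternatives were DESeq2 size factors, library totals, no filter, the DESeq2 1.42.0 Wald test, a fit of the compared groups alone, the replicate number as a block, and each library left out. The named list genes were put through the same alternatives after the data were seen. Whether the replicate numbers pair the libraries could not be told, and the block was kept as an alternative only. The text names all 10 members, the 3 called genes of lowest p per list and comparison, Hdac3 and Lyz2, and for 4 members the 3 genes most alike; some genes that the rule names are not reported here. The members and the lists were chosen with earlier results of these data known.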

Additional observations from a re-analysis of the deposited data

Results flagged for a closer look

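The results in this part were picked out because the LPS response differed between the genotypes in the edgeR quasi-likelihood test of the difference itself, with n = 3 libraries in each of the 4 groups. Each value is the log2 response in Lyz2-Cre cells minus that in Hdac3f/f cells. Among the 10 genes these were Abcg1 at -1.12 (adjusted p = 0.00565), Nr1h3 at -1.01 (adjusted p = 0.0111) and Apoe at -0.99 (adjusted p = 0.0129).

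In the pathway lists 8 of 71 genes differed, 3 higher and 5 lower, which is 11.3% against 8.12% of all tested genes. With library totals 12 differed, 12 higher and 0 lower, while of all tested genes 1134 were called higher and 448 lower, against 369 and 791 with TMM. The response was higher in Lyz2-Cre cells for Cd36 at 1.11 (adjusted p = 0.0171), Lpl at 0.90 (adjusted p = 0.0329) and Abca3 at 0.69 (adjusted p = 0.00605). It was lower for Marco at -1.20 (adjusted p = 0.0217), for the coactivators Ppargc1b at -1.02 (adjusted p = 0.0348), Ncoa1 at -0.68 (adjusted p = 0.0187) and Ncoa3 at -0.64 (adjusted p = 0.0147), and for Cyp27a1 at -1.02 (adjusted p = 0.0449). Of these 8, Abca3 kept its call in all 17 alternatives and Cd36 lost it in 1, without replicate 2 of untreated Hdac3f/f. The other 6 calls ended in 4 to 11 alternatives each, among them library totals for Marco, Ppargc1b, Ncoa1, Ncoa3 and Cyp27a1. Marco had 1932, 1297 and 1474 CPM in LPS-treated Lyz2-Cre libraries and 1000.3, 840.4 and 865 CPM in LPS-treated Hdac3f/f libraries, against 434, 619 and 576 CPM in untreated Lyz2-Cre libraries and 177, 111 and 119.9 CPM in untreated Hdac3f/f libraries.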

How the results depend on the processing

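Over 890 values of the members under alternatives, 790 kept direction and side of the threshold. Members called numbered 1 to 4 without LPS (3 in the main analysis) and 3 to 8 with LPS (7) as single libraries were left out, and 3 with LPS under library totals. List genes called without LPS numbered 12 to 25 (21), and differences in response 2 to 13 (8), with 13 by the DESeq2 Wald test. Over all tested genes, calls with single libraries left out ran from 779 to 2530 without LPS (1684). They ran from 2798 to 6004 with LPS (4656) and from 530 to 1995 for differences in response (1160). With the replicate number as a block, members called were 7 with LPS, 4 without LPS, 6 for LPS in each genotype and 3 for the difference in response, and list genes 31, 21, 45 in Lyz2-Cre, 49 in Hdac3f/f and 9. The member gained without LPS under the block was Abcg1, at 0.42 (adjusted p = 0.0272). The same-numbered libraries correlated by -0.404 to 0.217 over 18 pairs, and 4 of 12 were closest to their own number. Between untreated and LPS-treated libraries of the same genotype, same-numbered pairs ran from 0.0026 to 0.197, and differently numbered pairs from -0.357 to 0.364. With 3 libraries per group these values cannot show whether same-numbered libraries shared an animal or culture.

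These values changed sign. Library totals turned Mylip between LPS-treated genotypes to 0.063, LPS in Hdac3f/f cells for Scd2 to -0.61, Lpcat3 to -0.32, Crebbp to -0.41 and Ncoa6 to -0.24, LPS in Lyz2-Cre cells for Lpcat3 to -0.31, and the difference in response of Nr1h2 to 0.051, Pltp to 0.0044, Srebf1 to 0.081 and Lpcat3 to 0.017. Scd2 between LPS-treated genotypes became -0.032 with DESeq2 size factors, -0.030 with the Wald test and -0.010 with the block. Pltp with LPS in Hdac3f/f cells became 0.044 with DESeq2 size factors and 0.036 with the Wald test. With single libraries left out, the values ran from -0.078 to 0.21 for Nr1h3 and from -0.12 to 0.020 for Lpcat3 between untreated genotypes, from -0.15 to 0.27 for Scd2 between LPS-treated genotypes, from -0.27 to 0.060 for Abcg1, from -0.19 to 0.13 for Pltp and from -0.13 to 0.27 for Scd2 with LPS in Hdac3f/f cells, and from -0.26 to 0.19 for the difference in response of Abca1. Of the 10 genes' values in this paragraph, only that of Lpcat3 for LPS in Hdac3f/f cells had been called, and the cause was not tested. In that comparison library totals moved the median log2 fold change of all tested genes from -0.08 to -0.72. With 3 libraries per group, effects near the threshold turned on single libraries, and the intervals cover these libraries only.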
